A study of Mus musculus with 384 samples.

Results

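Reactive oxygen species are removed by a small set of enzymes that act in sequence. Superoxide dismutases turn superoxide into hydrogen peroxide, and catalase, the glutathione peroxidases and the peroxiredoxins then reduce the peroxide, the latter families at the expense of glutathione or thioredoxin. Dopamine (DA) neurons, and those of the substantia nigra above all, are exposed to oxidants from the metabolism of dopamine and from their mitochondria, which is why these enzymes are often followed in them. Transcripts of 10 such genes were measured in single DA-lineage cells. They were *Sod1* (the cytosolic copper-zinc dismutase), *Sod2* (the mitochondrial manganese dismutase), *Cat* (catalase of the peroxisome), *Gpx1* (the main cytosolic glutathione peroxidase), *Gpx3* (a secreted glutathione peroxidase), *Gpx4* (the peroxidase for lipid hydroperoxides in membranes), *Prdx1* and *Prdx2* (cytosolic peroxiredoxins), *Prdx5* (a peroxiredoxin of mitochondria, peroxisomes and cytosol) and *Gclc* (the catalytic subunit of glutamate-cysteine ligase, which limits the synthesis of glutathione). The genes were picked by symbol, and all 10 were found among 26749 genes with at least 1 read.

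The cells came from 8 DAT-IRES-Cre;Ai9 mice on a C57BL6/J background, 3 labelled female (mouse 1 at postnatal day 25, mouse 4 at day 33 and mouse 6 at day 36) and 5 labelled male (mice 2 and 3 at day 27, mouse 5 at day 28 and mice 7 and 8 at day 24). No mouse received a treatment. Cre from the *Slc6a3* (dopamine transporter) locus switches on tdTomato for good, so a sorted cell need not express the transporter or *Th* (tyrosine hydroxylase) when it is collected, and the dissected piece held hypothalamus as well as midbrain. Every mouse was captured in its own Fluidigm C1 run, so a mouse and its run cannot be told apart. Of 384 cells, 209 had at least 500000 reads counted on genes and were kept (median 780466 reads, range 500672 to 1544810), between 12 and 45 per mouse. Levels are given as CPM (reads of a gene per 1000000 reads counted), from the reads summed over the cells of a mouse, with the SD over mice.

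The cells were divided by their own transcripts. A cell was called Th-rich from 1000 CPM of *Th* (181 cells) and Th-poor below it (28 cells, at least 1 in every mouse). Th-rich cells were *Aldh1a7*-positive from 10 reads of *Aldh1a7*, a marker of nigral-type DA neurons (74 cells), and *Aldh1a7*-negative below it (107 cells). The negative cells were divided again into 36 *Otx2*-positive cells, with at least 10 reads of this transcription factor of ventral tegmental DA neurons, and 71 double-negative cells. All 8 DA markers looked up (*Th*, *Slc6a3*, *Slc18a2*, *Ddc*, *Nr4a2*, *Pitx3*, *En1* and *Foxa1*) were read in the Th-rich and in the Th-poor cells. Without *Th*, which defined the classes, the other 7 summed to 6249 to 9173 CPM in the Th-rich cells of the 5 mice with at least 3 Th-poor cells, and to 1130 to 2868 CPM in the Th-poor cells. As the mean over cells, *Slc6a3* (416 against 3145 CPM), *Slc18a2* (410 against 2005 CPM) and *Ddc* (720 against 2287 CPM) were low in the Th-poor cells. So were *En1* (20.4 against 146 CPM) and *Foxa1* (14.1 against 38.2 CPM). *Nr4a2* (241 against 364 CPM) and *Pitx3* (6.55 against 10.0 CPM) were nearer to the Th-rich level. *Pitx3* reached 10 reads in only 8.33% of these Th-poor cells, against 23.2% of the Th-rich cells.

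Of the Th-poor cells, 4 stood apart from all other kept cells. They were 3 cells of mouse 1 and 1 cell of mouse 2, with 1566 to 6132 CPM summed over 6 astrocyte markers, against at most 116 CPM in each of the other 205 kept cells. Of the 6 markers, 3, 4 and 4 reached 10 reads in the cells of mouse 1, and only 1 did in the cell of mouse 2. The same 4 cells held 15228 to 18772 CPM of 8 genes of the immediate-early and dissociation response, against at most 4308 CPM elsewhere, and only 1.47 to 46.7 CPM of *Slc6a3*. The differences by *Th* status are therefore given with and without them.

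Upstream sequence was looked at for the genes themselves. The core of the antioxidant response element, TGACNNNGC on either strand, was searched in the 250 bases before the start of each gene (RefSeq, GRCm38.p6). It was present in 2 of the 9 genes with an entry, *Sod1* and *Prdx1*, and in 11.5% of all 27025 genes, and *Gclc* had no entry. The match began 56 bases before the start in *Sod1* and 133 bases before it in *Prdx1*. The stretches printed, which hold the match and bases on either side, are chr16:90220696-90220724 and chr4:116685456-116685484, both on the plus strand. Both are shown 5′ to 3′ on the strand of the gene with the matched letters in capitals, which read as the core on the opposite strand. The window of *Gpx3* (chr11:54902604-54902853, plus strand), the gene with the largest differences by *Aldh1a7* and *Th* status below, held no match and so has no capitals.
Sod1: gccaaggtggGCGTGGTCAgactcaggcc
Prdx1: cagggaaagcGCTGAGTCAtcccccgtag
Gpx3: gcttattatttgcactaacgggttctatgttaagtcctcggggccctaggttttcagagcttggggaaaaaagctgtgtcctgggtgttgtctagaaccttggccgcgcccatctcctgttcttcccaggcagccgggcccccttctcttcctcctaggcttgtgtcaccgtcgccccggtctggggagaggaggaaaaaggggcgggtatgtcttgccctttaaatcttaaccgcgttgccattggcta

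*Sod1* was by far the most abundant of the 10 transcripts and *Gclc* the least. On the scale of CPM per kilobase of the principal transcript (GENCODE M21), which allows levels to be set side by side between genes, *Sod1* (chromosome 16, 90220762 to 90226333) stood at 3624 ± 744 (SD, n = 8 mice). *Prdx2* (chromosome 8, 84969622 to 84974811) followed at 284 ± 35.9, *Gpx3* (chromosome 11, 54902854 to 54910387) at 263 ± 157, *Gpx1* (chromosome 9, 108339080 to 108340342) at 242 ± 74.2 and *Gpx4* (chromosome 10, 80047166 to 80056439) at 220 ± 34.8. *Prdx5* (chromosome 19, 6906697 to 6910106) stood at 176 ± 26.7 and *Prdx1* (chromosome 4, 116685599 to 116700000) at 144 ± 22.3. From *Prdx2* to *Prdx1*, each gene differed from the next in this order by less than the sum of their SDs. *Sod2* (chromosome 17, 13007839 to 13018119) at 56.0 ± 14.5, *Cat* (chromosome 2, 103453904 to 103485153) at 20.1 ± 5.93 and *Gclc* (chromosome 9, 77754535 to 77794489) at 8.31 ± 5.11 were lower, each below the one before it by more than the sum of their SDs. Without the 4 cells with astrocyte markers this no longer held for *Gclc* (7.67 ± 5.34) below *Cat* (17.5 ± 9.13). With all annotated exons in place of the principal transcript the same 3 genes stayed lowest and *Sod1* highest, at 585, while *Gpx3* (231) and *Gpx1* (180.0) came before *Prdx2* (150.0). Coordinates are those of GRCm38.p6.

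Most of these genes were read in nearly every cell, and 3 were not. At least 10 reads of *Sod1* and *Prdx1* were counted in 209 of 209 cells, of *Prdx2* in 208, *Sod2* in 207, *Gpx4* in 206, *Prdx5* in 203 and *Gpx1* in 194. *Gpx3* reached 10 reads in 143 cells (68.4%), *Cat* in 113 (54.1%) and *Gclc* in 81 (38.8%). A cell at the median held 87.1 CPM of *Gpx3*, yet the highest held 2530 CPM and 43 cells held no read, a range that *Sod1* did not approach (162 to 5112 CPM, median 2307). The coefficient of variation over cells was 0.389 for *Sod1*, between 0.455 and 0.815 for *Gpx4*, *Prdx2*, *Prdx1*, *Sod2*, *Prdx5* and *Gpx1*, and 1.52, 1.63 and 1.98 for *Gpx3*, *Cat* and *Gclc*.

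Over mice, *Gpx3* was again among the 2 least even genes. Its CPM was 879.9 in mouse 1, 502.3 in mouse 2, 57.5 in mouse 3, 609 in mouse 4, 263 in mouse 5, 268 in mouse 6, 355 in mouse 7 and 418 in mouse 8, a 15.3-fold range with an SD of 59.7% of the mean. Mouse 3, the lowest, also gave the largest number of *Aldh1a7*-positive cells (28 of 45), and mouse 1, the highest, gave none in 18. *Gclc* had an SD of 61.5% of its mean and a 4.95-fold range, from 12.2 CPM in mouse 2 to 60.3 CPM in mouse 5. The other 8 genes had SDs of 12.7% (*Prdx2*) to 30.6% (*Gpx1*) of the mean and ranges of at most 2.49-fold. Without the cells with astrocyte markers *Cat* in mouse 1 went from 53.5 to 0.732 CPM, which took its range over mice from 2.43-fold to 115-fold and its SD to 52.1% of the mean. The highest values of *Gpx1* (429 CPM) and *Prdx1* (449.9 CPM) were both in mouse 1, and without these cells mouse 1 was still highest, at 318 and 359 CPM. *Gpx3* then ranged 17.5-fold and *Gclc* 4.82-fold, with SDs of 65.4% and 69.6% of their means.

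Cells positive for *Aldh1a7* were compared with negative cells of the same mice, in mice 2 to 8, which gave 3 or more cells to both classes. Among the 10 genes *Gpx3* had the largest fold difference, though not the smallest p. In mice 2 to 8 in order, *Gpx3* stood at 63.5, 31.4, 0, 46.2, 0.525, 276 and 216 CPM in the positive cells. In the negative cells it stood at 778, 103, 534, 293, 141, 354 and 413 CPM. The positive cells were lower in 7 of 7 mice, although the classes overlapped across mice, since the positive cells of mice 7 and 8 stood above the negative cells of mice 3 and 6. No read fell on *Gpx3* among 2598624 reads in 4 positive cells of mouse 4, which allows up to 1.15 CPM by counting error alone, and 2 reads fell on it among 3812360 in the 4 of mouse 6. The means were 90.5 ± 110 CPM in positive and 374 ± 233 CPM in negative cells (SD, n = 7 mice each).

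The test on summed counts did not call this difference. In edgeR's quasi-likelihood test the log2 fold change of *Gpx3* was -1.98 (SE 0.87, 3.95-fold lower in positive cells) with a Benjamini-Hochberg adjusted p of 0.616. When each mouse was given the mean of log2(CPM + 1) over its cells, so that a cell with no read weighs as much as any other, limma put the difference at -3.77 (SE 0.78) with an adjusted p of 0.0238. Leaving out mice in turn kept edgeR's estimate between -1.63 and -2.57 and no such fit called it (adjusted p of 0.551 or more). None of the 10 genes was called by edgeR or DESeq2 and only *Gpx3* by limma, where 0.112%, 1.13% and 0.535% of the 12525 genes tested were called. Unadjusted, 2 of the 10 had an edgeR p below 0.05 (*Gpx3* and *Prdx5*), as did 7.52% of all genes.

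**Figure D1:**
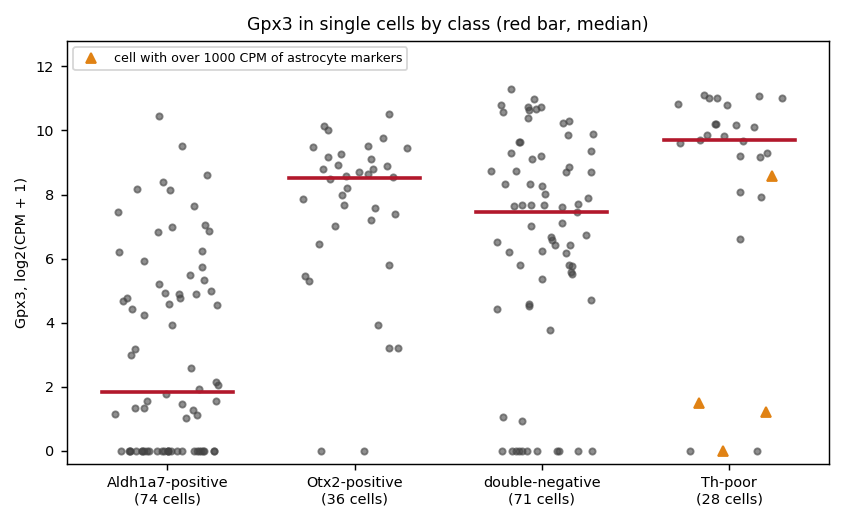
*Gpx3* in each of the 209 cells as log2(CPM + 1) on the vertical axis, by class of cell on the horizontal axis, with the median as a red bar and the 4 cells with over 1000 CPM of astrocyte markers as triangles. The median cell held 2.62 CPM in the *Aldh1a7*-positive class, 365 CPM in the *Otx2*-positive, 173 CPM in the double-negative and 824 CPM in the Th-poor class.

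The same contrast shows in how many cells reached 10 reads of the transcript. At least 10 reads of *Gpx3* were found in 38.9% ± 35.0 of the *Aldh1a7*-positive cells of a mouse and in 85.6% ± 8.79 of the negative cells (SD, n = 7 mice), with a lower share among positive cells in 6 of 7 mice. The exception was mouse 7, where 5 of 5 positive and 16 of 17 negative cells had it. In mouse 4 the counts were 0 of 4 against 4 of 4 and in mouse 6 they were 0 of 4 against 7 of 9. Counted over cells, 30 of 74 positive cells reached 10 reads and 27 held none, whereas 33 of 36 *Otx2*-positive and 57 of 71 double-negative cells of all 8 mice reached 10 reads, and 81 of the 96 negative cells in mice 2 to 8.

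Several other measures moved with the class. The positive cells held more *Slc6a3* (4621 ± 946 against 2507 ± 760 CPM, higher in 7 of 7 mice, log2 fold change 0.99, SE 0.21, adjusted p of 0.0874 in edgeR) and a median of 9778 genes detected against 8928.5 in the 96 negative cells of the same mice, at similar depth (medians of 791394 and 786693 reads). Their summed level of the 8 dissociation-response genes was 85.0 to 304 CPM against 104 to 791 CPM, and that of 8 hypothalamic markers 4.38 to 371 against 16.8 to 1396 CPM. Astrocyte markers summed to at most 1.11 CPM in positive cells, with *Gfap* and *Sox9* at 0, and to at most 8.31 CPM in negative cells. Oligodendrocyte markers summed to 0 to 50.3 CPM against 22.1 to 92.8 CPM, with *Mog* at 0 in both. The 6 nigral-type markers, *Aldh1a7* included, summed to 5172 to 11402 against 149 to 2643 CPM. The 6 ventral tegmental markers summed to 105 to 1556 against 877 to 2065 CPM. Of these, *Grp* reached 10 reads in 41.9% of positive and 40.6% of negative cells, *Neurod6* in 24.3% and 29.2% and *Calb1* in 50% and 92.7%. The positive class thus held cells with ventral tegmental markers. The part of these measures in the *Gpx3* difference was not tested. Both classes came from the same mice and runs, so no sex, age, chip or machine differed within a pair. The sequencing lane differed within a pair in mouse 4 alone, whose 4 positive cells were in lane 2 and whose 4 negative cells were split evenly between lanes 1 and 2.

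The other enzymes differed less between these classes. *Sod2* was 392 ± 83.2 CPM in *Aldh1a7*-positive and 320 ± 66.1 CPM in negative cells and was higher in 6 of 7 mice (log2 fold change 0.40, SE 0.19). *Cat* was 67.0 ± 12.7 against 46.4 ± 24.1 CPM, also higher in 6 of 7 mice (0.61, SE 0.35), and was read at 10 or more in 58 of 74 positive against 44 of 96 negative cells of these mice. *Gpx4* (233 ± 51.4 against 202 ± 32.6 CPM) was higher in 6 of 7 mice and *Prdx5* (276 ± 75.5 against 213 ± 40.0 CPM) in 5 of 7, with log2 fold changes of 0.30 (SE 0.18) and 0.47 (SE 0.20). Adjusted p-values in edgeR were 0.607 to 0.999 over these 4 genes, *Sod1*, *Gpx1*, *Prdx1*, *Prdx2* and *Gclc*, and the last 5 had log2 fold changes between -0.17 and 0.27. For every one of the 10 genes the ranges of the classes overlapped.

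**Figure D2:**
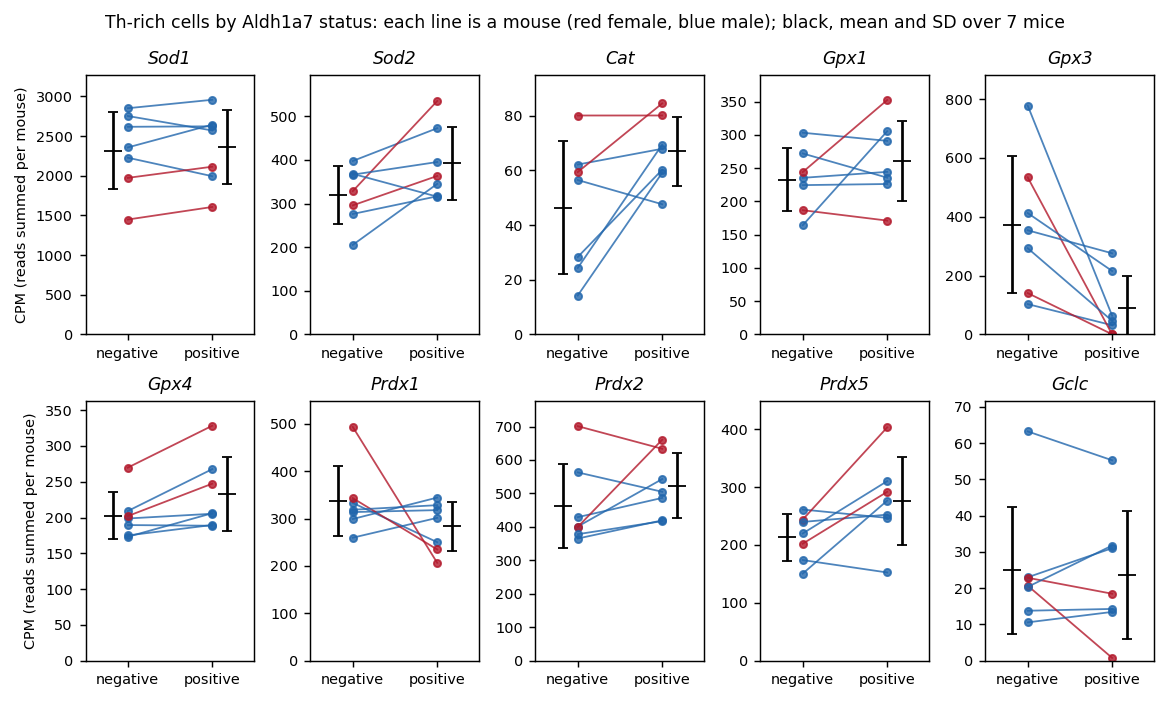
CPM of the 10 genes on the vertical axes in *Aldh1a7*-negative and *Aldh1a7*-positive Th-rich cells, with a line for each of 7 mice (red female, blue male) and the mean and SD in black. *Gpx3* is lower in the positive cells of all 7 mice, while *Sod2*, *Cat* and *Gpx4* are higher in 6.

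*Otx2* status divided the *Aldh1a7*-negative cells without a called difference in these genes. In mice 1, 2, 3, 5, 7 and 8, *Gpx3* stood at 169, 547, 207, 405, 308 and 636 CPM in *Otx2*-positive and at 844, 961, 67.4, 215, 387 and 330.2 CPM in double-negative cells. It was higher in 3 mice and lower in 3, and the ranges overlapped (log2 fold change -0.29, SE 0.50, adjusted p of 0.999 in edgeR). The share of cells with at least 10 reads of *Gpx3* was 90.0% ± 13.2 against 81.0% ± 8.14 and was higher in 5 of 6 mice. By limma on the mean log2(CPM + 1) over cells the estimate was 0.54. *Cat* had the largest estimate (0.91, SE 1.07, higher in 5 of 6 mice), with 42.2 ± 40.1 against 22.7 ± 19.3 CPM and with no read among 5842026 in the double-negative cells of mouse 1, which allows up to 0.514 CPM. *Prdx2* was lower in *Otx2*-positive cells in 5 of 6 mice (400.0 ± 118 against 459 ± 69.4 CPM). None of the 10 genes was called by edgeR, DESeq2 or limma and none had an unadjusted edgeR p below 0.05, where 0.0261%, 0.443% and 0.217% of 11506 genes were called by these tools and 4.25% had such a p in edgeR.

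Th-poor cells held more *Gpx3* than the Th-rich cells of the same mice. In mice 1, 2, 4, 5 and 6 the Th-poor cells stood at 1283, 514, 1187, 1235 and 772 CPM and the Th-rich cells at 652, 500.5, 277, 163 and 91.1 CPM. Th-poor cells were higher in 5 of 5 mice, by little in mouse 2, and the ranges overlapped through mouse 2. With at least 5 cells of each class only mice 1 and 2 remained, with a log2 fold change of 0.69. The means over all 5 mice were 998 ± 339 and 337 ± 235 CPM (SD, n = 5 mice each), and the log2 fold change in edgeR was 1.60 (SE 0.47) with an adjusted p of 0.255. DESeq2 gave 1.68 (SE 0.50, adjusted p of 0.0296) and limma on the mean log2(CPM + 1) over cells gave 3.23 (SE 0.72, adjusted p of 0.0387). None of the 10 genes was called by edgeR and *Gpx3* alone by the other tools, where 0.424% (edgeR), 3.23% (DESeq2) and 1.12% (limma) of 11322 genes were called. *Gpx3* and *Prdx2* had an unadjusted edgeR p below 0.05, as did 9.35% of all genes.

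The cells with astrocyte markers lowered rather than raised this estimate. They held 0 to 1.80 CPM of *Gpx3* in 3 of 4 and 379 CPM in the fourth. Without them the Th-poor cells stood at 2047, 642, 1187, 1235 and 772 CPM, the log2 fold change was 1.83 (SE 0.50, adjusted p of 0.160 in edgeR), with 1.90 (SE 0.50, adjusted p of 0.00791) in DESeq2 and 4.18 (SE 0.70, adjusted p of 0.00575) in limma. Of 11060 genes tested without these cells 0.841% (edgeR), 3.73% (DESeq2) and 1.74% (limma) were called. The Th-poor and Th-rich ranges overlapped by the values of mice 1 and 2. Of the remaining 24 Th-poor cells, 22 had at least 10 reads of *Gpx3*, with a median of 918 CPM. Dissociation-response genes summed to a median of 1061 CPM in these 24 cells and to 144 CPM in the Th-rich cells. In the 5 mice compared, the Th-poor cells also had fewer genes detected (median 7834, or 8329 without the 4 cells, against 8949) and fewer reads (median 691730, or 718438, against 789425). The part of these measures in the *Gpx3* level was not tested.

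Because the Th-rich cells include the *Aldh1a7*-positive ones, the Th-poor cells were also set against *Aldh1a7*-negative Th-rich cells alone. *Gpx3* in the latter stood at 652, 778, 534, 293 and 141 CPM in mice 1, 2, 4, 5 and 6, so the Th-poor cells were higher in 4 mice and lower in mouse 2. The log2 fold change of *Gpx3* became 1.09 (SE 0.42, adjusted p of 0.594 in edgeR), or 1.32 (SE 0.44, adjusted p of 0.433) without the 4 cells.

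**Figure D3:**
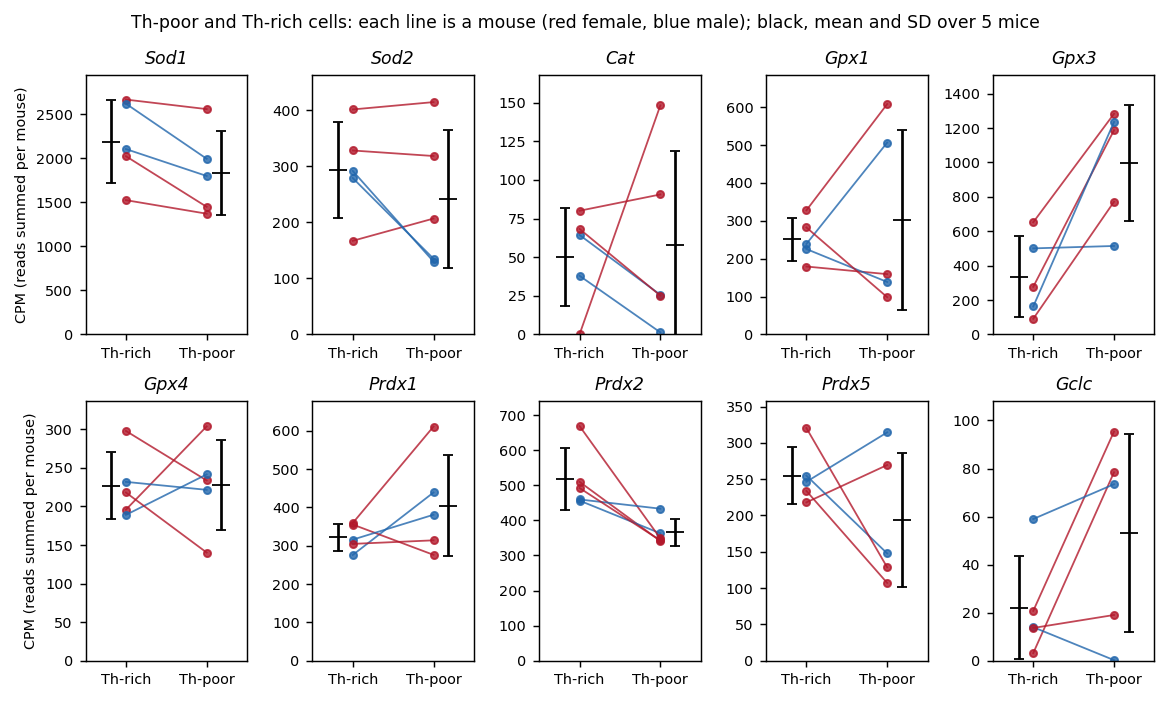
CPM of the 10 genes on the vertical axes in Th-rich and Th-poor cells, with a line for each of 5 mice (red female, blue male), all Th-poor cells included, and the mean and SD in black (bars that would pass below 0 are cut at the axis). In the Th-poor cells *Gpx3* is higher and *Prdx2* lower in 5 of 5 mice, and *Cat* in mouse 1 stands at 148 CPM with the cells with astrocyte markers and at 2.52 CPM without them.

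*Prdx2* was lower in Th-poor cells than in all Th-rich cells of the same mice, though it was not called. Its CPM in Th-poor cells was 341, 363, 348, 433 and 343 in mice 1, 2, 4, 5 and 6, below the 509.6, 456, 668, 459 and 492 CPM of the Th-rich cells in every mouse. The means were 366 ± 38.7 and 517.2 ± 87.5 CPM, and the log2 fold change was -0.47 (SE 0.21, adjusted p of 0.518 in edgeR). Without the 4 cells it was -0.40 (adjusted p of 0.572). Against the *Aldh1a7*-negative Th-rich cells alone, at 488 ± 127 CPM, the ranges overlapped, *Prdx2* was lower in 4 of 5 mice with mouse 5 turned (433 against 429 CPM), and the log2 fold change was -0.37 (SE 0.25, adjusted p of 0.859 in edgeR). *Sod1* was also lower in 5 of 5 mice, with 1834 ± 478 against 2187 ± 471 CPM (log2 fold change -0.20, SE 0.23, adjusted p of 0.868), and its ranges overlapped. Without the 4 cells it stood at 1873 ± 546 CPM in Th-poor cells (-0.19, SE 0.23) and was lower in 4 of 5 mice, with mouse 1 at 2729 against 2666 CPM.

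For *Cat*, *Gpx1*, *Gpx4*, *Prdx1* and *Prdx5* the sign or size of the *Th* difference turned on the 4 cells with astrocyte markers. *Cat* in Th-poor cells of mouse 1 was 148 CPM with them and 2.52 CPM without them, and the Th-rich cells of that mouse held 0.123 CPM. Over the 5 mice the log2 fold change of *Cat* was 0.23 (SE 1.12) with the 4 cells and -1.06 (SE 1.29) without. *Gpx1*, at 563 to 1677 CPM in the 4 cells, went from 0.34 to -0.26, *Gpx4* from 0.041 to -0.22 and *Prdx1*, at 832 to 1284 CPM in them, from 0.37 to 0.053. No adjusted p in edgeR for these 4 genes was below 0.725 in either fit. *Prdx5* went from -0.37 (SE 0.32, adjusted p of 0.806 in edgeR) to -0.57 (SE 0.31, adjusted p of 0.617), and its Th-poor level in mouse 1 from 269 to 120 CPM, against 218 CPM in the Th-rich cells. *Gclc* was 53.3 ± 41.2 CPM in Th-poor and 22.1 ± 21.6 CPM in Th-rich cells (log2 fold change 1.30, SE 1.03, higher in 4 of 5 mice), *Sod2* 241 ± 123 against 294 ± 85.2 CPM and *Prdx5* 193 ± 92.4 against 255 ± 39.2 CPM. Without the 4 cells the Th-poor cells stood at 45.8 ± 38.8 CPM of *Gclc* (log2 fold change 1.07), 252 ± 115 CPM of *Sod2* (-0.20) and 171 ± 85.4 CPM of *Prdx5*.

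Male and female mice were compared over all kept cells, 5 against 3. *Gpx3* was 502.3, 57.5, 263, 355 and 418 CPM in the males (mice 2, 3, 5, 7 and 8) and 879.9, 609 and 268 CPM in the females (mice 1, 4 and 6), and the ranges overlapped (319 ± 170 against 586 ± 307 CPM, log2 fold change -0.86, SE 0.56, adjusted p of 0.737 in edgeR). *Sod1* was 2523 ± 303 CPM in males and 1990 ± 588 CPM in females (0.38, SE 0.21) and *Cat* was 45.3 ± 10.2 and 64.8 ± 16.6 CPM (-0.49, SE 0.29, or -0.063 without the 4 cells). None of the 10 genes was called by edgeR, DESeq2 or limma or had an unadjusted edgeR p below 0.05, where 0.0322%, 1.22% and 0.155% of 15528 genes were called and 8.12% had such a p in edgeR. The series description gives other numbers of male and female mice than the labels, so the sex comparison and the interaction below hold only as far as the labels do. The females span days 25 to 36 and the males days 24 to 28, and 1 of the C1 machines ran males only. Th-poor cells were 7 of 18, 4 of 12 and 4 of 17 kept cells in the females (mice 1, 4 and 6). In the males they were 5 of 34, 1 of 45, 4 of 38, 2 of 24 and 1 of 21. *Aldh1a7*-positive cells numbered 0, 4 and 4 in the females and 11, 28, 16, 5 and 6 in the males. Sex, age and the mix of classes can therefore not be fully told apart. Within the machine that ran both sexes (mice 1, 2, 4, 6 and 7), the log2 fold change of *Gpx3* was -0.43 (SE 0.48).

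Whether the class differences differed by sex was tested as an interaction. For *Aldh1a7* status, with 2 female and 5 male mice, *Gpx3* had the smallest p of the 10 genes (p = 0.000195, adjusted p of 0.0786 in edgeR), which is not past the threshold. The estimate itself depends on the near absence of reads in the positive cells of both females and is not given as a fold. None of the 10 genes was called, where 0.0639% of 12525 genes were called for *Aldh1a7* status and 0% of 11322 for *Th* status, in which the adjusted p of all 10 genes was 0.865 or more. Unadjusted, *Gpx3* and *Prdx1* (p = 0.0135) had an edgeR p below 0.05 in the first interaction and none of the 10 genes did in the second, where 10.9% and 6.47% of all genes had such a p.

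**Figure D4:**
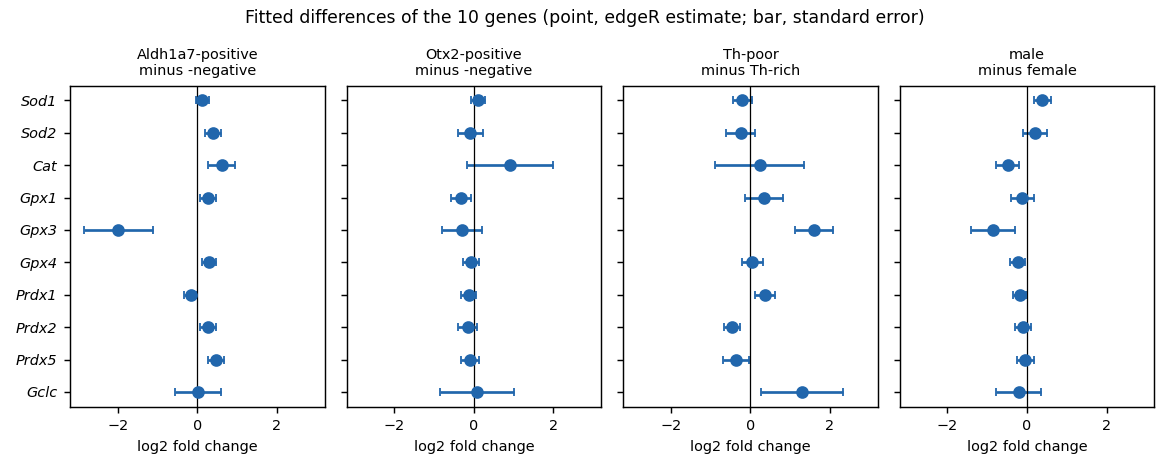
Log2 fold change from edgeR on the horizontal axes, with its standard error, for the 10 genes on the vertical axis in the 4 comparisons. *Gpx3* has the largest estimates in the panels for *Aldh1a7* (-1.98) and *Th* status (1.60), and the bars of *Cat* and *Gclc* are the widest in the panels for *Otx2* and *Th* status.

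Other genes of the same pathways were not called with all cells, and 2 were for *Th* status without the 4 cells. Of 62 other genes of glutathione, thioredoxin and peroxiredoxin, superoxide and metal handling, NRF2 and heme, and selenoprotein synthesis, 49 were tested for *Aldh1a7* status, 50 for *Otx2* status, 50 for *Th* status and 55 for sex. With all kept cells none was called by edgeR in these 4 comparisons. Unadjusted, 4, 2, 10 and 5 of them had an edgeR p below 0.05, where 7.52%, 4.25%, 9.35% and 8.12% of all genes tested did. The median log2 fold change of the 62-gene set among those tested was 0.081, -0.17, 0.077 and -0.036 in that order, and that of the 10 genes was 0.27, -0.094, 0.13 and -0.15, while that of all genes tested was -0.014, 0.014, 0.0996 and 0.021. For *Th* status without the 4 cells with astrocyte markers, 47 of the 62 were tested, 8 had an unadjusted edgeR p below 0.05, where 9.70% of all genes did, and 2 were called, beside 0.841% of all genes. The medians were then -0.096 for the 62-gene set, -0.21 for the 10 genes and 0.069 for all genes. The 2 called, named here after their values were seen, were *Msrb2* and *Pon2*. *Msrb2*, a methionine sulfoxide reductase, stood at 163 ± 57.1 CPM in Th-poor and 44.2 ± 17.4 CPM in Th-rich cells and was higher in 5 of 5 mice (log2 fold change 1.90, SE 0.39, adjusted p of 0.0412 in edgeR, against 1.70 and 0.106 with all cells). *Pon2*, a paraoxonase, stood at 0 to 0.360 CPM in Th-poor and 10.2 to 26.1 CPM in Th-rich cells (adjusted p of 0.0176 in edgeR), and with all cells the Th-poor range was 0 to 65.0 CPM and the adjusted p 0.999.

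Over the 209 cells the 10 genes varied largely apart from each other. The Spearman correlation of log2(CPM + 1) was between -0.31 and 0.33 over their 45 pairs, with a median of 0.098, and 33 pairs were above 0. Without the 4 cells the values were between -0.31 and 0.38, with a median of 0.089. The closest pairs were *Gpx4* with *Prdx2* (0.33), *Gpx4* with *Gpx1* (0.33) and *Gpx1* with *Sod1* (0.30). *Gpx3* ran against *Prdx5* (-0.31), *Cat* (-0.25), *Sod2* (-0.24) and *Gpx4* (-0.20). These values share the same libraries and normalization and are given as a description only.

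**Figure D5:**
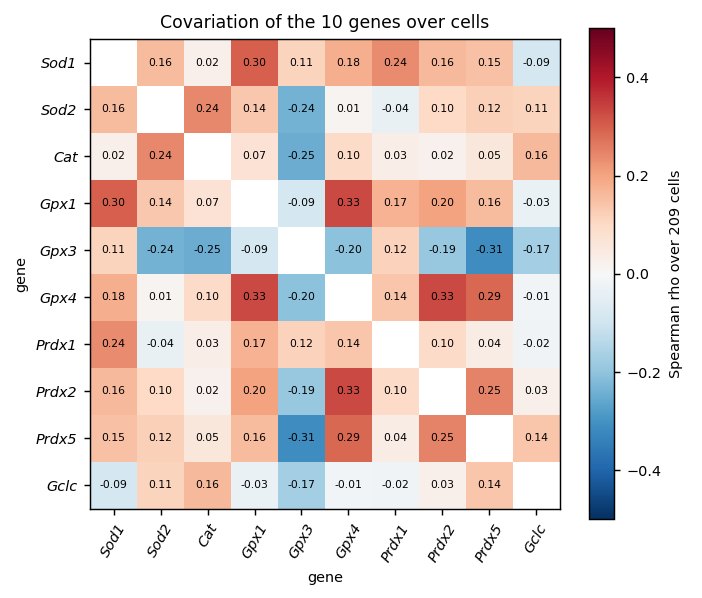
Spearman correlation of log2(CPM + 1) over 209 cells for each pair of the 10 genes, with both axes listing the genes and the colour scale running from -0.5 to 0.5. Most pairs are weakly positive and the row of *Gpx3* holds the lowest values, down to -0.31.

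The genes most like each enzyme over cells were then listed, among 5060 genes that reached 10 reads in most of the cells (5061 for *Gclc*). *Gpx3* had the closest partners, *Ahi1* (0.72), which encodes jouberin, a protein of the primary cilium, and *Resp18* (0.69), a protein of neuroendocrine secretory cells. Within mice the correlation of *Gpx3* with *Ahi1* was 0.44 to 0.90 and with *Resp18* 0.39 to 0.80, and within the 107 *Aldh1a7*-negative cells they were 0.63 and 0.60 and within the 74 positive cells 0.29 and 0.37. Both partners were chosen for their likeness to *Gpx3* over all classes, so their levels by class are no independent result. They were lower in *Aldh1a7*-positive cells in 7 of 7 mice, *Ahi1* at 530 ± 231 against 1225 ± 353 CPM (log2 fold change -1.10, SE 0.27, adjusted p of 0.188 in edgeR) and *Resp18* at 1025 ± 323 against 1776 ± 386 CPM (-0.71, SE 0.20, adjusted p of 0.292). *Gpx3* itself correlated at -0.53 with *Slc6a3* and at -0.54 with *Aldh1a7* over all cells. Within mice these correlations ranged from -0.90 to -0.047 with *Slc6a3* and from -0.81 to -0.21 with *Aldh1a7*. With *Slc6a3* the value was -0.48 within the negative, -0.036 within the positive and 0.50 within the Th-poor cells, or 0.27 in the 24 Th-poor cells left without the 4 with astrocyte markers. With *Aldh1a7* it was -0.43 within the positive cells and -0.039 within the negative cells, which by their rule hold under 10 reads of *Aldh1a7*. Its correlation with the number of reads was -0.058 and with the number of genes detected -0.38. Over the 205 cells without these 4 the values were -0.57 with *Slc6a3*, -0.55 with *Aldh1a7*, 0.73 with *Ahi1* and 0.70 with *Resp18*.

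No other enzyme had a partner above 0.52. *Sod2* lay nearest to *Gsk3b* (a protein kinase, 0.52), *Sod1* to *Set* (0.50) and *Otub1* (a deubiquitinase, 0.45), and *Gpx4* to *Actg1* (gamma actin, 0.47) and *Ldhb* (lactate dehydrogenase B, 0.46). *Prdx2* lay nearest to *Sepw1*, which encodes the selenoprotein W (0.47), and to *Mdh1*, the cytosolic malate dehydrogenase (0.47), and *Prdx5* to *Mdh1* (0.45) and *Ldhb* (0.45). *Prdx1* and *Gpx1* lay nearest to genes of translation, *Rpl35* (0.40) and *Rps6* (0.31) for the first and *Eef1a1* (0.37) and *Rpl4* (0.37) for the second. *Cat* lay nearest to *Ado*, a thiol dioxygenase (0.40), and *Serpine2*, a protease inhibitor (0.33). Of these partners *Serpine2*, chosen for its likeness to *Cat* over all classes and so no independent result by class, was among the 0.112% of genes called for *Aldh1a7* status in edgeR, at 1546 ± 629 CPM in positive and 452 ± 211 CPM in negative cells (log2 fold change 1.85, SE 0.33, adjusted p of 0.0298, higher in 7 of 7 mice). *Gclc* lay nearest to *Malat1*, a nuclear long noncoding RNA (0.35), and *LOC102636378* (0.34).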

How the data were processed

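Per the labels and the study's methods, tdTomato-positive cells were captured on Fluidigm C1 chips, amplified (SMARTer), made into Nextera XT libraries and sequenced on a HiSeq 2500. The authors trimmed reads with Trimmomatic 0.3.2, aligned them with TopHat2 2.1.1 to GRCm38 and deposited raw read counts per RefSeq gene from featureCounts 1.5.0-p3, without molecular identifiers. Reads on more than 1 gene were dropped. *Prdx1-ps* and *Prdx2-rs3* hold no values and *Gpx4-ps* holds 8 reads in the kept cells, so reads shared with such copies of *Prdx1*, *Prdx2* and *Gpx4* may be missing from their counts.

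Cells with at least 500000 reads were kept. Counts were summed per mouse and class (at least 3 cells of each) and tested with edgeR 4.0.16 (quasi-likelihood, TMM, low-count filter, Benjamini-Hochberg adjustment over all genes tested, threshold 0.05) in R 4.3.3. Mice are the replicates. The classes of a mouse were not paired in these fits, except in the alternative named below with the mouse as a block. DESeq2 1.42.0 and limma 3.58.1 on mean log2(CPM + 1) over cells were alternatives, with other limits on depth, cells and class, and mice left out in turn. The limit given for a count of 0 is 3 reads and, like all counting limits, covers counting error only. Entries for transgenes and spike-ins (0.00457% of reads) were left out.

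The genes, lists and rules were chosen with earlier results of these data known. Named genes are the 10 members and, for each, the 2 genes with the highest Spearman correlation over cells, of which 1 is not reported here. Settings without the cells with astrocyte markers, or with *Aldh1a7*-negative cells as the reference for *Th* status, were added after seeing the data. The labels give 5 male and 3 female mice. The series description gives other numbers and another range of ages, and the labels were followed.

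Both classes of a pair come from the same animal. The deviations of the classes of a mouse from their class means correlated at 0.0454 to 0.228 for *Aldh1a7* status, 0.0750 to 0.219 for *Otx2* status and 0.0314 to 0.169 for *Th* status. In simulated counts with known changes, 49% of 4-fold and 79% of 16-fold changes were recovered for *Aldh1a7* status (12203 genes), 32% and 77% for *Otx2* status (11123 genes), 14% and 51% for *Th* status (10748 genes) and 17% and 64% for sex (14946 genes).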

Additional observations from a re-analysis of the deposited data

Results flagged for a closer look

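In 70 groups of mice, 1 for each gene and class, 6 held a mouse far from the others, where chance gives about 1 group in 20. In *Aldh1a7*-negative cells, mouse 4 had 269.8 CPM of *Gpx4* (the others 173 to 209.1 CPM) and 493.4 CPM of *Prdx1* (the others 260 to 343 CPM), from 4 cells. *Prdx2* stood at 433 CPM in the Th-poor cells of mouse 5 (the others 341 to 363 CPM) and at 668 CPM in the Th-rich cells of mouse 4 (the others 456 to 509.6 CPM). *Gclc* was high in mouse 5, with 63.2 CPM in *Aldh1a7*-negative cells (the others 10.6 to 23.0 CPM) and 77.1 CPM in *Otx2*-positive cells (the others 0 to 24.7 CPM), and these classes share cells.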

How the results depend on the processing

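Of 810 log2 fold changes of the 10 genes under other settings, 82 turned direction, none of them called, 5 passed the threshold (*Gpx3* as given in the report) and the others kept their direction and their side of it. The mean levels over mice moved by less than their SD in all settings run. *Gpx3* kept its direction in all 21 settings for *Aldh1a7* status (-3.77 to -1.22), but not for *Otx2* status. For the values below the cause was not tested, and a small class, a few cells per mouse and 5 to 8 mice limit all of them.

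DESeq2 called 141 genes for *Aldh1a7* status, 51 for *Otx2* status, 366 for *Th* status and 190 for sex. By limma on the mean log2(CPM + 1) over cells 67, 25, 127 and 24 genes were called. There *Gclc* (-0.054), *Gpx3* (0.54) and *Gpx4* (0.092) turned for *Otx2* status, *Gpx1* (-0.21), *Gpx4* (-0.090) and *Cat* (-0.40) for *Th* status, and *Gclc* (0.015) and *Cat* (0.40) for sex. With library size as the only scaling *Gclc* turned for *Aldh1a7* status (-0.079).

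With the mouse as a replicate block (pairing of classes within an animal) 18, 0 and 10 genes were called for *Aldh1a7*, *Otx2* and *Th* status, against 14, 3 and 48 without it (for *Otx2* status 717 and 489 at an unadjusted p below 0.05 in edgeR). No other call changed, and *Gclc* for *Aldh1a7* (-0.19) and *Otx2* status (-0.59), *Gpx3* for *Otx2* status (0.069), and *Gpx1* (-0.037) and *Cat* (-0.69) for *Th* status turned.

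With cells from 250000 reads 28 genes were called for *Aldh1a7* status and 74 for *Th* status, and *Gclc* turned for *Otx2* status (-0.044). With cells from 750000 reads 1, 0, 0 and 3 genes were called in the 4 comparisons (650, 407, 1166 and 1415 at an unadjusted p below 0.05 in edgeR). There *Gpx1* (-0.018) and *Sod1* (-0.067) turned for *Aldh1a7* status, *Gpx3* (0.17) and *Sod1* (-0.11) for *Otx2* status, *Gclc* (-0.15), *Gpx4* (-0.18) and *Cat* (-1.46) for *Th* status, and *Gclc* (0.022), *Gpx1* (0.52), *Prdx1* (0.14), *Prdx5* (0.30) and *Cat* (0.36) for sex. With cells thinned to 500000 reads 30, 1 and 21 genes were called for the classes and *Gpx4* turned for *Otx2* status (0.083). With at least 5 cells per class 0 genes were called for *Otx2* and *Th* status (459 and 1042 at an unadjusted p below 0.05 in edgeR), *Prdx1* turned for *Aldh1a7* status (0.12) and *Gclc* (-0.11), *Prdx1* (0.11) and *Sod1* (-0.12) for *Otx2* status.

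With positive cells from 1 read *Gclc* turned for *Aldh1a7* (-0.21) and *Otx2* status (-0.23). From 50 reads 0 genes were called for *Otx2* status (401 at such a p) and *Gpx1* (0.044), *Prdx1* (0.17), *Prdx2* (0.021) and *Sod1* (-0.064) turned. With Th-rich cells from 3000 CPM 7 genes were called for *Aldh1a7* status, and with cells of any *Th* level 52 were, with *Gclc* at -0.23. With *Aldh1a7*-positive cells let in, 5 were called for *Otx2* status, with *Gclc* at -0.18.

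For *Th* status 15 genes were called with no low-count filter (*Gpx4* -0.033), 86 at a *Th* limit of 300 CPM (*Gpx4* -0.061), 21 at 3000 CPM (*Gpx4* -0.17), 112 with cells under 200 CPM set against those from 1000 CPM, and 17 with *Aldh1a7*-negative cells as the reference. Without the 4 cells with astrocyte markers 93 were called and *Gpx1* (-0.26), *Gpx4* (-0.22) and *Cat* (-1.06) turned. Without them DESeq2 called 413 (*Gpx1* -0.18, *Gpx4* -0.14, *Cat* -0.99) and limma 192 (*Gpx1* -0.50, *Gpx4* -0.27, *Prdx1* -0.11, *Cat* -1.08). With these cells left out and the *Aldh1a7*-negative reference *Gpx1* (-0.20), *Gpx4* (-0.11), *Prdx1* (-0.070), *Sod2* (0.025) and *Cat* (-0.85) turned. For sex, *Gclc* (0.067), *Gpx1* (0.031) and *Prdx5* (0.040) turned without the 4 cells and *Gclc* (1.03) in Th-rich cells only, and 0 genes were called within the machine that ran both sexes (565 at an unadjusted p below 0.05 in edgeR).

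With 1 mouse left out in turn, 8 to 18 genes were called for *Aldh1a7* status, 1 to 5 for *Otx2* status and 3 to 72 for *Th* status, the lowest for *Th* without mouse 5 and the highest without mouse 1. Ranges that crossed 0 were *Gclc* (-0.10 to 0.18) and *Prdx1* (-0.24 to 0.031) for *Aldh1a7* status, *Gpx3* (-0.58 to 0.086), *Sod2* (-0.22 to 0.092), *Gpx4* (-0.21 to 0.011) and *Gclc* (-0.36 to 0.42) for *Otx2* status, *Gpx4* (-0.13 to 0.18) and *Cat* (-0.80 to 0.54) for *Th* status, and *Gpx1* (-0.35 to 0.30), *Sod2* (-0.075 to 0.48), *Gclc* (-0.69 to 0.28), *Prdx2* (-0.23 to 0.025) and *Prdx5* (-0.15 to 0.051) for sex. The median log2 fold change of all genes for *Th* status was 0.0996, and it moved to -0.18 with no low-count filter, -0.25 by limma and -0.27 with the block.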

Other observations

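Among the 74 *Aldh1a7*-positive cells, *Gpx3* was not even. The 11 that also had at least 10 reads of *Otx2*, from 4 mice, held a median of 112 CPM of *Gpx3*, with at least 10 reads in 7 cells (63.6%), and a median of 17.9 CPM of *Aldh1a7*. The other 63 cells, from 7 mice, held a median of 1.76 CPM of *Gpx3*, with at least 10 reads in 23 cells (36.5%), and a median of 305 CPM of *Aldh1a7*. The cells with *Otx2* were 3 in mouse 2, 1 in mouse 5, 3 in mouse 7 and 4 in mouse 8, and in mouse 8 they held less *Gpx3* (22.3 CPM) than the 2 cells without *Otx2* (631 CPM), so no comparison over mice was made.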
